A study of Mus musculus with 2 samples.

Results

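The miR-29 family was followed in exosomes, small vesicles released by cells, from the serum of tumour-bearing mice. The members were taken by name: every spot on the array whose miRNA name was mmu-miR-29a-3p, mmu-miR-29b-3p, mmu-miR-29c-3p, mmu-miR-29a-5p or mmu-miR-29c-5p. This rule used no measured value, but the members were chosen with earlier results of these data known. These were 5 of the 1881 mouse miRNAs on the array, carried by 12 of 4415 probes and 150 of 56430 spots on each array. The mice were female C57BL/6 mice aged 6 weeks. In the LLC group they received 1000000 luciferase-expressing Lewis lung carcinoma (LLC) cells, a mouse lung cancer cell line, under the skin. In the MSC+LLC group the injection also held mesenchymal stem cells from mouse bone marrow (BMSCs), the multipotent stromal cells of that tissue. Serum was taken when the mean tumour volume had reached 200 mm3, and 100 ng of exosomal RNA was labelled for each array. Each group was 1 array, so there was no replicate, no test was made, and every difference below lies between 2 arrays. How many mice and how many BMSCs stood behind an array was not given. The labels say serum where the methods say plasma, and they name tissues (lung, or bone marrow and lung) that describe the injected cells rather than the fluid. One slide carried both arrays in 1 scan, so slide position and group cannot be told apart.

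A miRNA is a short RNA that guides the silencing complex to messenger RNAs, chiefly through its seed, the bases just after its 5′ end. The miR-29 family is best known for repressing the genes of the extracellular matrix, among them several collagens, elastin and fibrillin, and for repressing the de novo DNA methyltransferases Dnmt3a and Dnmt3b, the latter first described in lung cancer cells. Loss of miR-29 accompanies fibrosis of the heart, liver, kidney and lung. The family is made from 2 pairs of neighbouring hairpins, Mir29a with Mir29b-1 on chromosome 6 and Mir29b-2 with Mir29c on chromosome 1. From each hairpin the 3p arm is the usual guide strand, whereas the 5p arm is mostly degraded.

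The mature sequences are shown because the 3p members share a seed and differ from one another at few bases, which bears on how far an array can keep them apart. They are those of RefSeq on assembly GRCm38.p6, 5′ to 3′, with the seed (bases 2 to 8) in capitals.
mmu-miR-29a-3p: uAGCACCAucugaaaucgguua
mmu-miR-29c-3p: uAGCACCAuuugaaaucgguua
mmu-miR-29b-3p: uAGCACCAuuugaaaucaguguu
mmu-miR-29a-5p: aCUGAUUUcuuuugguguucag
mmu-miR-29c-5p: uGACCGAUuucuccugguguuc
The 3p arm of Mir29a lies at chr6:31062673-31062694 on the minus strand and its 5p arm at chr6:31062711-31062732. Those of Mir29c lie on the plus strand, the 3p arm at chr1:195037600-195037621 and the 5p arm at chr1:195037562-195037583. The mmu-miR-29b-3p sequence is encoded at both places, at chr6:31063025-31063047 on the minus strand in Mir29b-1 and at chr1:195037091-195037113 on the plus strand in Mir29b-2, so its signal cannot be assigned to either gene. Between the hairpins of a pair lie 275 bases on chromosome 6 and 426 bases on chromosome 1. In the RefSeq gene table both hairpins on chromosome 1 lie inside the long non-coding RNA gene A330023F24Rik. Those on chromosome 6 overlap no other gene there, so no hairpin lies in a protein-coding gene of that table.

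All 3 members with the 3p arm carried the seed AGCACCA, which was found in 3 of the 1679 mature mouse miRNAs of the RefSeq table (0.179%), these 3 and no other. The 5p seeds, CUGAUUU and GACCGAU, were each found in 1 of the 1679. Counting from 1 at the 5′ end, mmu-miR-29c-3p differed from mmu-miR-29a-3p by a single substitution, C10U, with 21 of 22 bases the same. The change from mmu-miR-29c-3p to mmu-miR-29b-3p was G18A, U21G and A22U, followed by 1 further base at the 3′ end of mmu-miR-29b-3p. The 3p members thus parted only outside the seed, and mmu-miR-29b-3p carried most of its differences at the 3′ end, the part of this miRNA known to direct it into the nucleus. The 5p arms matched at 17 of 20 bases when position 1 of mmu-miR-29a-5p was set beside position 3 of mmu-miR-29c-5p, with U3C, U11C and U12C counted along mmu-miR-29a-5p, so that their seeds were out of step. How much of the signal on a probe for a given 3p member came from another was not tested. The values of mmu-miR-29a-3p, mmu-miR-29b-3p and mmu-miR-29c-3p are uncertain to that extent.

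The arrays measure fluorescence of labelled RNA bound to probe spots, here as background-subtracted intensity in array units. A spot is well above background when the scanner software marks it so, and detection of a probe required this of more than 50% of its spots. The MSC+LLC array was the dimmer by 11.5-fold, taken as the ratio of their 75th percentiles over probes seen on both (2883 against 250.3), and 240 miRNAs were measured on both. Probes added as negative controls averaged between 1.07 and 4.39 on the LLC array and between 2.87 and 5.49 on the MSC+LLC array. The dimmest detected probe stood at 20.9 and 18.8. Spiked-in labelling controls differed by a log2 ratio of -1.32 and hybridization controls by 0.038. Of 11 miRNAs used as markers of blood, liver and mesenchymal cells, 9 were measured on both arrays, with scaled log2 ratios from -2.33 to 1.66. The red cell miRNAs mmu-miR-451a and mmu-miR-486a-5p were at 1.06 and 1.66 but mmu-miR-144-3p at -2.33. Those of platelets and leukocytes were at 0.14 (mmu-miR-223-3p), -2.25 (mmu-miR-142a-3p) and -0.51 (mmu-miR-126a-3p), and the hepatocyte mmu-miR-122-5p was at 0.78. Of the mesenchymal miRNAs, mmu-miR-199a-3p was at 0.57 and mmu-miR-214-3p at 0.82, mmu-miR-143-3p was seen on the LLC array alone and mmu-miR-145a-5p on neither. Whether the cells of origin or the amount of exosomal RNA had a part in the miR-29 values was not tested, and fewer vesicles cannot be told apart from less miRNA per vesicle.

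Of the 5 members, 4 were detected on the LLC array, against 26.7% of all miRNAs, and 3 on the MSC+LLC array, against 13.7% of all miRNAs. The 3p members were seen on both arrays, mmu-miR-29c-5p only on the LLC array, and mmu-miR-29a-5p on neither.

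mmu-miR-29a-3p is the 3p product of the pair on chromosome 6 that is not shared with another gene. Its first probe gave 28951 ± 1847 intensity units on the LLC array (SD over 14 spots, lowest 25952, median 28730, highest 31856). On the MSC+LLC array the same probe gave 2502 ± 204 (SD over 15 spots, lowest 2189, median 2505, highest 2902). Every spot on the LLC array was brighter than every spot on the MSC+LLC array, as for 92.3% of all probes detected on both. The 11.6-fold gap between the means was almost that of the arrays as a whole. The second probe gave 8164 ± 960 (SD over 15 spots, lowest 5762, median 8490, highest 9118) and then 478 ± 53.1 (SD over 15 spots, lowest 380, median 485, highest 547). Here the gap was 17.1-fold, wider than that between the arrays.

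To compare the groups at equal overall brightness, each array was divided by its 75th percentile, which raised every log2 ratio of MSC+LLC over LLC by 3.53. On that scale the log2 ratio of mmu-miR-29a-3p was -0.0062 by the first probe (spot-to-spot SD 0.15) and -0.57 by the second (SD 0.23). One probe therefore placed mmu-miR-29a-3p level with the array and the other 1.48-fold lower. The mean of the probes was -0.29 with a spot-to-spot SD of 0.14, or 1.22-fold lower with BMSCs, which is less than the range of 0.56 between the probes. The ratios of 32.5% of the 240 measured miRNAs were lower still.

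mmu-miR-29c-3p, made from chromosome 1, had probes that gave like answers. The first gave 3005 ± 231 on the LLC array (SD over 14 spots, lowest 2630, median 3005, highest 3405) and 189 ± 26.6 on the MSC+LLC array (SD over 15 spots, lowest 142, median 187, highest 234). The second gave 2474 ± 370 (SD over 14 spots, lowest 1479, median 2639, highest 2850) and 171 ± 17.9 (SD over 15 spots, lowest 140, median 177, highest 194). Before scaling, the spots of the arrays did not overlap for either probe, with gaps of 15.9-fold and 14.5-fold. The same held for 92.3% of all probes detected on both arrays. After scaling the spots overlapped for both probes, and the log2 ratios were -0.46 (spot-to-spot SD 0.23) and -0.33 (SD 0.26). Their mean, -0.40 with an SD of 0.18, was 1.32-fold lower with BMSCs, and 27.1% of the measured miRNAs had a lower ratio.

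mmu-miR-29b-3p, the product shared by both pairs of hairpins, had the lowest ratio of the family, and it rests on 1 probe. That probe gave 2076 ± 365 on the LLC array (SD over 15 spots, lowest 1271, median 2301, highest 2421) and 86.6 ± 12.1 on the MSC+LLC array (SD over 14 spots, lowest 60.3, median 87.0, highest 104). Its spots also scattered more than most, with coefficients of variation of 17.6% and 14% against medians of 9.73% and 10.9% over all detected probes. The gap was 24.0-fold before scaling. After it the log2 ratio was -1.06 (spot-to-spot SD 0.32), which is 2.08-fold lower with BMSCs and close to the 2-fold line, and 10.4% of the measured miRNAs lay lower. The other probe of mmu-miR-29b-3p gave 63 ± 14.9 on the LLC array, with all 15 spots well above background, and 2.34 ± 2.51 on the MSC+LLC array, with 0 of 14 spots above it. Brought to the brightness of the MSC+LLC array, its LLC level would be 5.47, under the dimmest detected probe there, so this probe set no bound on the ratio.

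**Figure D1:**
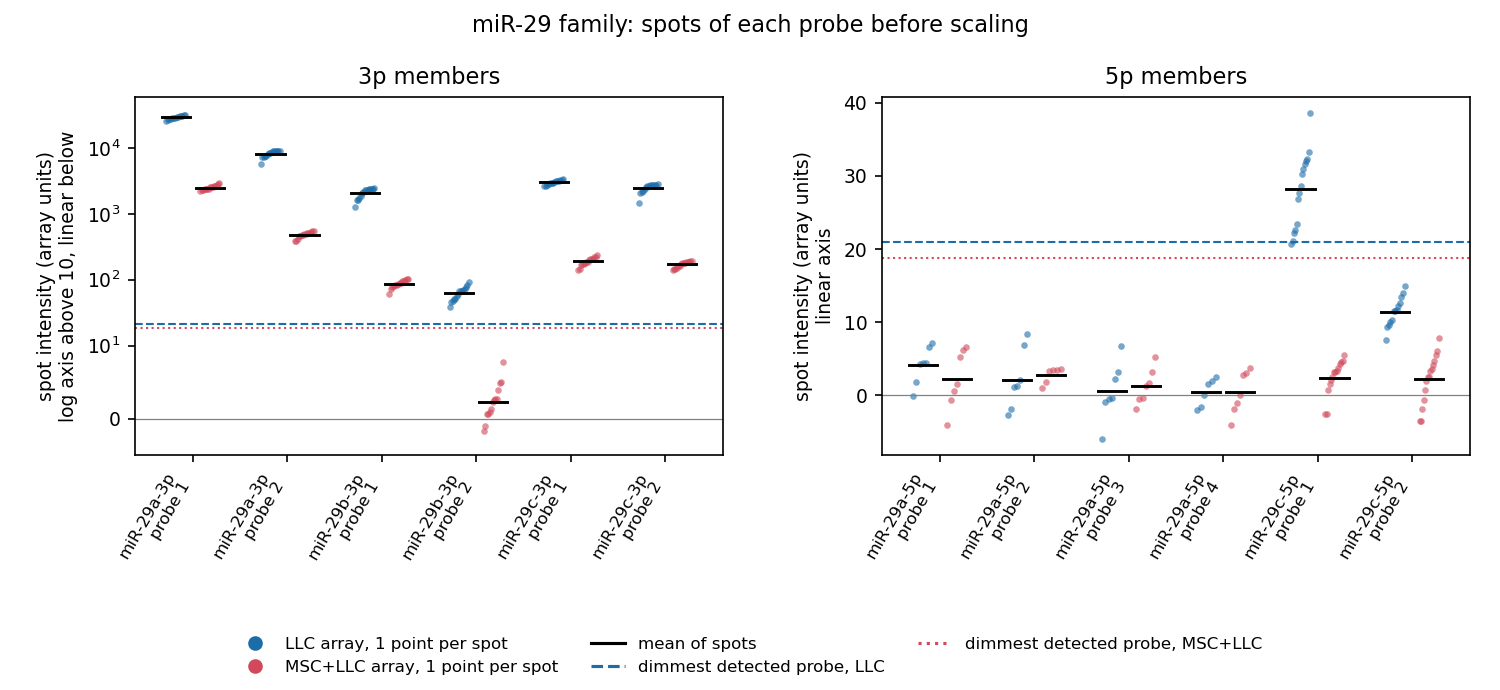
Intensity of each spot of the miR-29 family probes before scaling, in array units, for the LLC array (blue) and the MSC+LLC array (red), with black bars at the spot means and lines at the dimmest detected probe of each array (20.9 and 18.8). The left axis is logarithmic above 10 and linear below it and holds the 3p members, of which all but the second mmu-miR-29b-3p probe were above the lines on both arrays. The right axis is linear and holds the 5p members, of which only the first mmu-miR-29c-5p probe passed its line, on the LLC array.

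The 5p arms were at or near background. The first probe of mmu-miR-29c-5p gave 28.2 ± 5.26 on the LLC array (SD over 15 spots, lowest 20.7, median 28.7, highest 38.6), with 12 of 15 spots well above background. On the other array it gave 2.45 ± 2.48 (SD over 14 spots, lowest -2.59, median 3.18, highest 5.50), with 0 spots above background, no higher than the negative control probes. The second probe gave 11.4 ± 2.05 and 2.24 ± 3.42 and was not detected on either array. At the brightness of the MSC+LLC array the first probe's LLC level would be 2.44, so the same relative amount would have gone unseen there, and no ratio or bound was given for mmu-miR-29c-5p. The 4 probes of mmu-miR-29a-5p averaged from 0.43 to 4.10 on the LLC array and from 0.40 to 2.81 on the MSC+LLC array, with 0 spots well above background, so mmu-miR-29a-5p was not detectable at the sensitivity of either array.

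The 5p arms of mmu-miR-29b, which were not members, gave a similar picture. The brightest of 4 probes for mmu-miR-29b-1-5p, the 5p arm of the chromosome 6 copy, gave 50.7 ± 7.06 on the LLC array, where 7 of 7 spots were well above background, and 3.82 ± 4.0 on the MSC+LLC array, where 0 of 7 were. It too set no bound. The probes of mmu-miR-29b-2-5p, the 5p arm of the chromosome 1 copy, averaged -1.08 and -2.09 on the LLC array and -0.21 and -1.73 on the MSC+LLC array, and mmu-miR-29b-2-5p was detected on neither. Thus the 5p arms of Mir29c and Mir29b-1 were seen on the brighter array only and those of Mir29a and Mir29b-2 on neither.

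From lowest to highest log2 ratio the order was mmu-miR-29b-3p at -1.06, mmu-miR-29c-3p at -0.40 and mmu-miR-29a-3p at -0.29. mmu-miR-29b-3p lay below mmu-miR-29c-3p by a log2 difference of -0.66 (1.58-fold), against a spot-to-spot SD of the difference of 0.37. It lay below mmu-miR-29a-3p by -0.77 (1.71-fold, SD 0.35). Both differences were larger than the spread between spots, and the probe ratio of mmu-miR-29b-3p was outside the probe ranges of the others. With 1 probe ratio, mmu-miR-29b-3p had no probe range of its own. The probes of mmu-miR-29a-3p alone lay 0.56 apart, not far below these differences. With normexp, a model-based background correction with an offset of 50, both differences shrank, to -0.30 and -0.11, within their spot-to-spot SDs. Such an offset narrows the gap between the arrays most for dim probes, and the mmu-miR-29b-3p probe averaged 86.6 on the MSC+LLC array. The part of the offset in this shrinkage was not tested. The neighbours mmu-miR-29c-3p and mmu-miR-29a-3p, 1 base apart in sequence, differed by -0.11 (1.08-fold, SD 0.22), within the spread of the spots, and their order turned after quantile normalization (0.096) and with normexp (0.19). The spot-to-spot SD is technical, and how far these values vary between mice is not known.

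Counted over the family, 1 of the 3 members with a ratio fell past the 2-fold line in MSC+LLC, where 11.2% of all measured miRNAs did, and 0 were at least 2-fold higher, where 27.1% of all were. The lower call was that of mmu-miR-29b-3p and was lost with normexp, at -0.57. Its offset of 50 by construction narrows the gap of a probe as dim as this one, at 86.6 on the MSC+LLC array. The ratios of all 3 were below 0, as were 42.9% of all measured ratios. Their median was -0.40 and their range -1.06 to -0.29, beside a median of 0.15 over the 240 miRNAs. At equal brightness, the spots of the 2 arrays stood apart for 1 of 5 detected probes, the mmu-miR-29b-3p probe, with LLC spots from 110 to 210 and MSC+LLC spots from 60.3 to 104. All spots were lower on the MSC+LLC array for 24.4% of all probes detected on both. For the second mmu-miR-29a-3p probe the LLC spots ran from 500 to 791 and the MSC+LLC spots from 380 to 547, a narrow overlap, and for the first they ran from 2253 to 2765 and from 2189 to 2902, with the LLC range inside the other. Without scaling, all 5 probes stood apart, as did 92.3% of all probes detected on both.

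The 3p ratios stayed below 0 under each constant tried, but their size changed. Apart from the median of probes on both arrays (3.57), these constants raised the ratios by less than 3.53 and so could only lower them. For mmu-miR-29a-3p the first probe, at -0.0062 with an SD of 0.15, gave no sign. With the 75th percentile of all probes, the log2 ratios of mmu-miR-29a-3p, mmu-miR-29b-3p and mmu-miR-29c-3p were -1.50, -2.27 and -1.61, where 52.9% of the measured miRNAs were at least 2-fold lower. With the labelling spike-ins they were -2.50, -3.27 and -2.61. Without scaling they were -3.81, -4.58 and -3.92, and 90.4% of the measured miRNAs were at least 2-fold lower. Under these scalings all 3 members passed the 2-fold line along with most of the array, whose median moved to -1.07, -2.06 and -3.38 in turn. A constant per array moves every miRNA alike, so the place of the family among the measured miRNAs stayed where it was, below the median by 0.55 for its middle member.

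**Figure D2:**
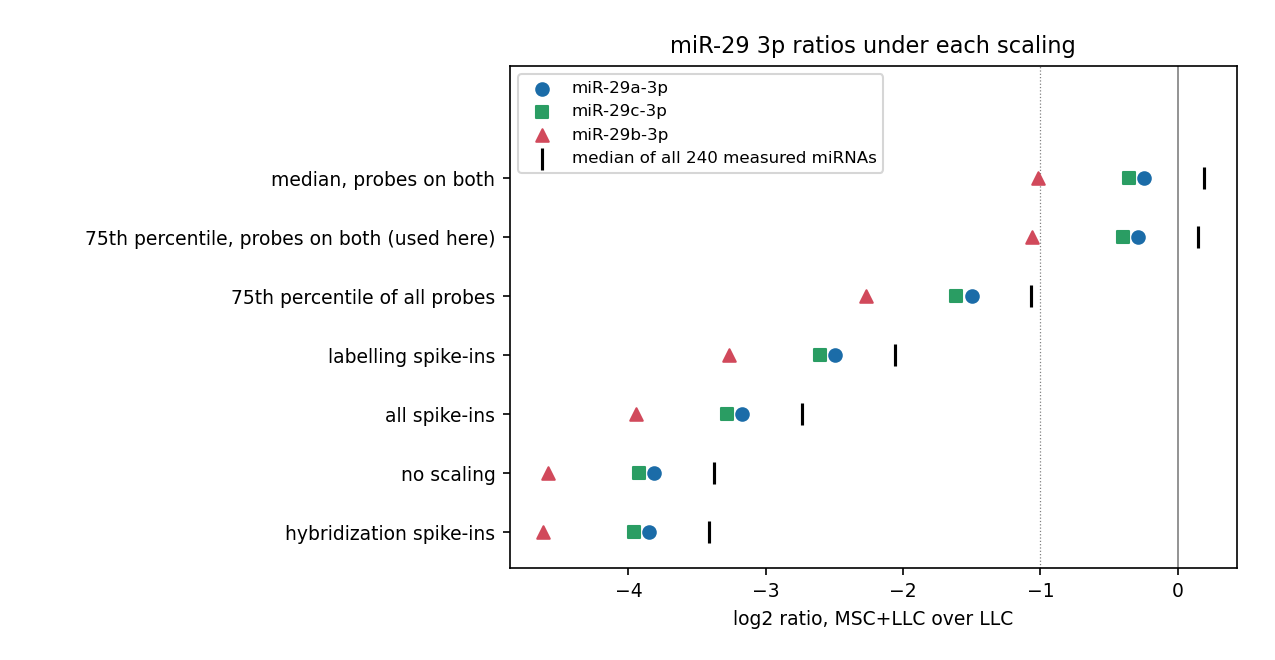
Log2 ratio of MSC+LLC over LLC for the 3p members (blue circle mmu-miR-29a-3p, green square mmu-miR-29c-3p, red triangle mmu-miR-29b-3p) and the median of the 240 measured miRNAs (black bar), under 7 choices of a constant per array. The dotted line marks 2-fold lower. The members stayed below the median and below 0 in every line of the plot, while the ratio of mmu-miR-29b-3p ran from -1.02 with the median of the probes to -4.62 with the hybridization spike-ins.

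The deposited table gave the family on another scale, each miRNA's summed signal as log2, less a constant per array. There mmu-miR-29a-3p went from 6.25 in LLC to 5.82 in MSC+LLC (-0.43, 1.34-fold lower), mmu-miR-29c-3p from 3.49 to 2.77 (-0.72, 1.65-fold lower), and mmu-miR-29b-3p from 2.13 to 0.72 (-1.42, 2.67-fold lower). The order of the members was the same as by the probes. The 5p arms in that table show how a miRNA at background was treated. mmu-miR-29a-5p stood at -10.34 and -6.80, which reads as 11.6-fold higher in MSC+LLC, although its probes were at background on both arrays, because each undetected miRNA had been given a summed signal of 0.1 and the constants of the arrays differed by 3.54. mmu-miR-29c-5p stood at -4.11 and -6.80, which reads as 6.45-fold lower and rests on the same value of 0.1 in MSC+LLC.

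Other families of long-known miRNAs were set beside miR-29. Over all 240 measured miRNAs, 11.2% were at least 2-fold lower. Of the let-7 and miR-98 family, which restrains growth-promoting genes such as Lin28a and Hmga2, 7 of 9 on the array were measured, with a median log2 ratio of -1.70 (range -2.23 to -0.60) and 6 at least 2-fold lower. The median of the miR-29 members lay above that median by 1.3. Of miR-26 and miR-101, known for repressing the histone methyltransferase Ezh2, 4 of 5 were measured, with a median of -1.30 (range -2.15 to -0.18) and 3 at least 2-fold lower, 0.90 below miR-29. A constant per array cannot turn that order, and of the other alternatives only normexp did, with miR-29 below by -0.51. All 5 members of miR-30, a family abundant in kidney and muscle, were measured, with a median of -0.086 (range -0.30 to 1.22), and the miR-29 median less this one was -0.31. By median, miR-29 thus lay between miR-30 and the other families, but single members overlapped. mmu-miR-30e-5p (-0.30) was below mmu-miR-29a-3p (-0.29), mmu-miR-26a-5p (-0.18) was above every miR-29 member, and mmu-let-7b-5p (-0.60) was above mmu-miR-29b-3p (-1.06). These lists are described by counts and medians, and no test sets them apart.

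A second list held 13 miRNAs known to act on matrix genes or DNA methyltransferases, the genes for which miR-29 is best known. Of these, 11 were measured on both arrays, with a median of -0.18. Of the 11, 8 were below 0 (42.9% of all measured miRNAs were), 1 at least 2-fold lower (11.2% of all) and 1 at least 2-fold higher (27.1% of all). Among those that limit matrix genes, mmu-miR-133a-3p was at 1.28, mmu-miR-30c-5p at -0.086, mmu-miR-26a-5p at -0.18, mmu-miR-19b-3p at -0.46 and mmu-miR-18a-5p at -1.40, while mmu-miR-200b-3p was seen on the LLC array alone. Members of this group were thus found on both sides of miR-29. Among those raised in fibrosis, mmu-miR-21a-5p was at -0.25, mmu-miR-192-5p at -0.32 and mmu-miR-214-3p at 0.82, and mmu-miR-199a-5p was detected on neither array. The miR-148 and miR-152 family, which like miR-29 targets DNA methyltransferases, was at -0.0088 for mmu-miR-148a-3p, -0.77 for mmu-miR-148b-3p and 0.17 for mmu-miR-152-3p. The measured members ran from -1.40 to 1.28, and the miR-29 median less that of the list was -0.22.

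**Figure D3:**
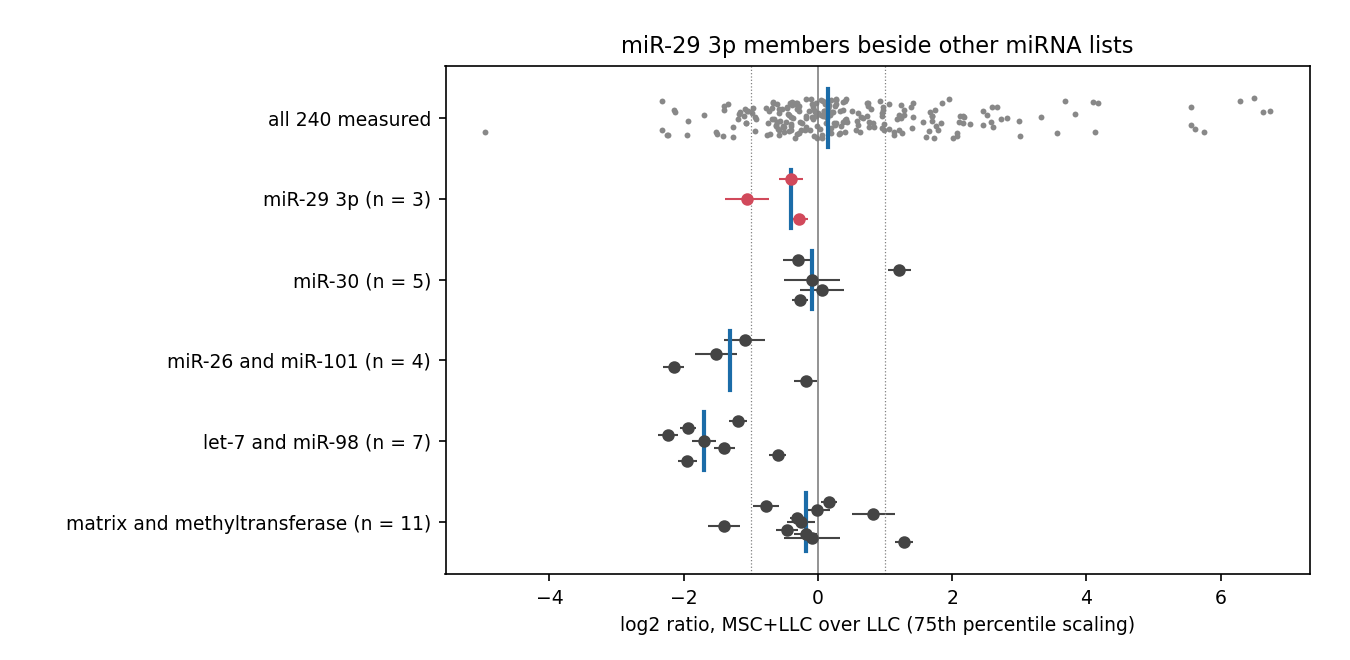
Scaled log2 ratio of MSC+LLC over LLC for each miRNA measured on both arrays, for all 240, the 3p members of miR-29 (red) and 4 other lists, with blue bars at the medians, horizontal bars at the spot-to-spot SD and dotted lines at 2-fold. The miR-29 members, at -1.06 to -0.29, lay above the let-7 and miR-98 median of -1.70 and below the miR-30 median of -0.086.

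Among the 144 miRNAs measured on both arrays by at least 2 probes, the nearest in log2 ratio to mmu-miR-29a-3p (-0.29), the brightest 3p member, were mmu-miR-30e-5p at -0.30, mmu-miR-3081-5p at -0.27 and mmu-miR-185-5p at -0.31. Likeness here is the size of the difference between log2 ratios over 2 arrays, at most 0.024 for these 3, and many miRNAs crowd at this value.

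The 3p members are poor in G and C, at 34.8% of bases in mmu-miR-29b-3p, 36.4% in mmu-miR-29c-3p and 40.9% in mmu-miR-29a-3p. This is also their order by ratio, but mmu-miR-29c-3p and mmu-miR-29a-3p differed by only -0.11, within their spot-to-spot SD of 0.22. A sequence was found for 197 of the 240 measured miRNAs (82.1%). Those without one held several of the highest ratios, such as mmu-miR-669p-3p at 6.63 and mmu-miR-466f-3p at 5.75, and the lowest, mmu-miR-6360 at -4.96. The bands and correlations below therefore describe only the miRNAs with a sequence. Among these, the median ratio under 40% G and C was -0.85 over 28 miRNAs. Of the 28, 22 were below 0 and 12 at least 2-fold lower, against 42.9% and 11.2% of all 240 measured. From 40% to under 50% the median was -0.29 over 52 miRNAs, from 50% to under 60% it was 0.37 over 50, and from 60% it was 0.25 over 67. mmu-miR-29c-3p thus lay above, and mmu-miR-29b-3p below, the median of the first band, and mmu-miR-29a-3p lay at the median of the second. Over all 197 the correlation between ratio and G and C content was 0.18 (Pearson's r) and 0.31 (Spearman's rho), a description across miRNAs that share the same 2 arrays and their brightness. The part of base composition in the miR-29 ratios was not tested.

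**Figure D4:**
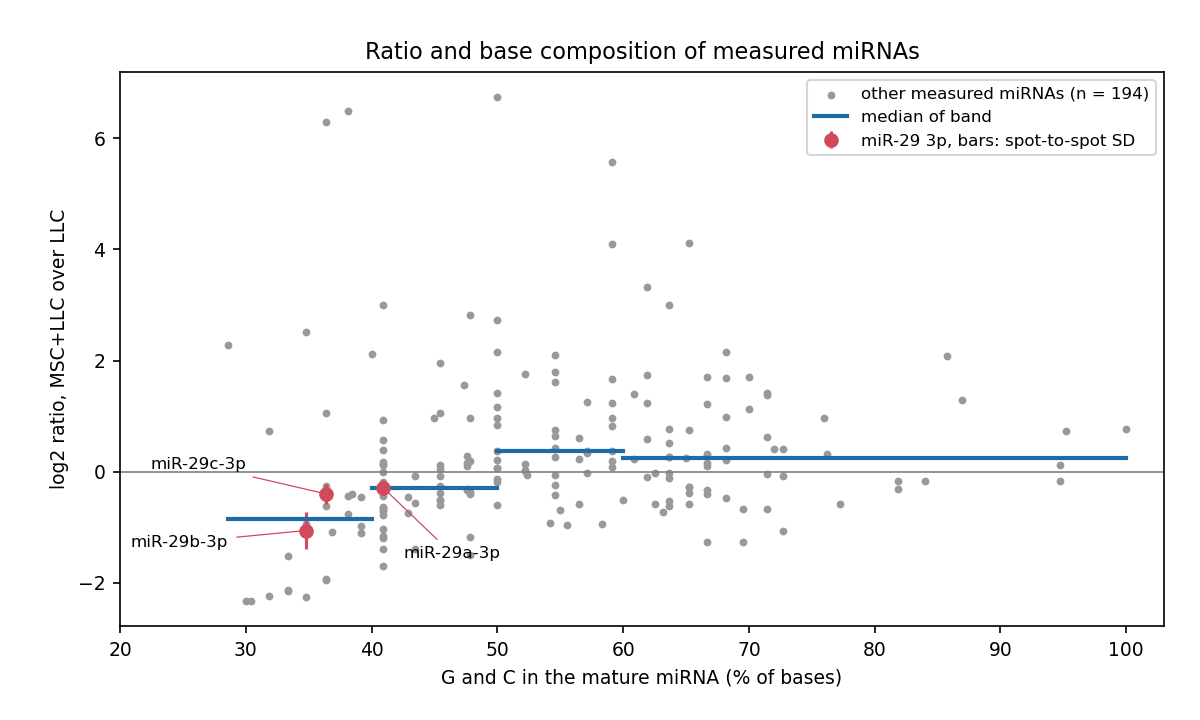
Scaled log2 ratio of MSC+LLC over LLC against the percent of G and C in the mature sequence, for the 197 of 240 measured miRNAs with a sequence. The 3p members of miR-29 are in red (bars are the spot-to-spot SD) and the median of each band is in blue. mmu-miR-29b-3p and mmu-miR-29c-3p sit in the band under 40%, whose median was -0.85, and mmu-miR-29a-3p in the next, whose median was -0.29.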

How the data were processed

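Serum exosomal RNA was hybridised to Agilent mouse miRNA arrays with 1 colour (Cy3), 1 array per group, grouped by sample title. The deposited scanner files hold spot intensity, background-subtracted by the authors with Agilent Feature Extraction (version 11.5.1.1 in the headers, 10.7 in the submitters' processing notes), and not scaled between arrays. The deposited table of the series holds log2 values that the authors made with GeneSpring GX. Setting it against the scanner files gave the constants of 7.02 and 3.48 per array, to within 1.53e-05.

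Control spots and outlier spots were left out, 8 and 6 of them among the members on the LLC and MSC+LLC arrays. No spot was saturated. A member probe had 7 to 15 spots, of which the kept ones were averaged. Detection needed more than 50% of them well above background. Scaling used the 75th percentile over probes seen on both arrays, and the log2 ratios of such probes were averaged per miRNA. No test was possible with 1 array per group, and the number of arrays limits the precision. The lists named in the results and the 3 miRNAs nearest to the brightest 3p member were named by rule. Members and lists were chosen with earlier results of these data known. The file headers name build mm9, and the sequences and positions are those of the RefSeq tables of GRCm38.p6, matched by name. The functions were tested on simulated data. Alternatives covered the scaling, spots, probes, background (normexp, offset 50), detection and fold. Python 3.11.15, numpy 2.4.6, pandas 2.3.3, matplotlib 3.10.9, R 4.3.3 and limma 3.58.1 were used.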

Additional observations from a re-analysis of the deposited data

How the results depend on the processing

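No paired analysis was possible because there was 1 array in each group, and no array could be left out. The log2 ratios of all 3 members with the 3p arm stayed below 0 under all 13 alternatives. This was fixed in advance for the scalings that raised the ratios by less than 3.53. The deposited values are the summed signal less another constant per array. By its brightest probe and by the summed signal, mmu-miR-29a-3p lay within its spot-to-spot SD of 0.14 from 0, which gave no sign. The causes of the changes in size below were not tested beyond what a constant per array does by construction. For mmu-miR-29a-3p, mmu-miR-29b-3p and mmu-miR-29c-3p in turn, they were -1.50, -2.27 and -1.61 under a 75th percentile taken over all probes, -3.17, -3.94 and -3.29 using all spike-ins, -2.50, -3.27 and -2.61 using those for labelling, -3.85, -4.62 and -3.96 using those for hybridization, -3.81, -4.58 and -3.92 without scaling, and -0.43, -1.42 and -0.72 in the deposited values. mmu-miR-29a-3p was also at -0.55 after quantile normalization, -0.0062 by its brightest probe, -0.056 by the summed signal and -0.46 with normexp, which put mmu-miR-29b-3p at -0.57. Members at least 2-fold lower numbered 3 with all probes, with each of the spike-in scalings and without scaling, 0 with normexp, and 0 at a 4-fold threshold. With the deposited values and undetected miRNAs at 0.1, an alternative chosen after seeing the data, 2 were lower and 1 higher. A constant per array cannot move a difference between members. Under the other alternatives, the difference of mmu-miR-29b-3p from mmu-miR-29c-3p ran from -0.77 to -0.30, moving by less than its spot-to-spot SD. That of mmu-miR-29b-3p from mmu-miR-29a-3p shrank to -0.11 with normexp. mmu-miR-29c-3p minus mmu-miR-29a-3p was -0.46 by the brightest probe and 0.19 with normexp. The miR-29 median less that of let-7 and miR-98 was 1.12 by the brightest probe and 0.68 with normexp. Less that of miR-26 and miR-101 it was 1.24 after quantile normalization, 1.11 by the summed signal and in the deposited values, and turned to -0.51 with normexp. With normexp it was -1.22 less that of miR-30 and -1.29 less that of the matrix and methyltransferase list. The offset of 50 in normexp narrows gaps most for dim probes by construction, and its part in the normexp values was not tested. Detection of 3 members on the MSC+LLC array held under all 3 other detection rules, and that on the LLC array was 3 or 4. The brightness of the MSC+LLC array limits what can be seen of the 5p arms and of the second mmu-miR-29b-3p probe.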
